A study of Mus musculus with 71 samples.

Results

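Pecam1, Cdh5, Kdr, Tek, Tie1, Nfatc1, Egfl7, Emcn, Esam and Cldn5 are 10 genes that mark the cells lining blood vessels and the inner wall of the heart. They were taken by symbol from a count table of 37620 mouse genes, and all 10 were present and passed the filter on low counts in every tissue. The table covered 71 RNA-seq libraries from C57BL/6 embryos staged at embryonic day 9.5, when they had 20 to 22 somites. Embryos had been divided into 3 samples, the tail bud, the heart and all that was left (called the remainder here and labelled as rest of the embryo in the plots). The embryos carried 1 of 8 alleles of the locus that runs from miR-17 to miR-92a-1, a cluster on chromosome 14 that encodes 6 miRNAs. Wild-type embryos had the cluster intact and Full-KO embryos lacked all of it. Delta_17 embryos lacked miR-17 and miR-20a, Delta_18 embryos miR-18a, Delta_19 embryos miR-19a and miR-19b-1, and Delta_92 embryos miR-92a-1. Delta_17_18 embryos lacked miR-17, miR-20a and miR-18a, and Delta_17_18_92 embryos lacked these and miR-92a-1, so that miR-19a and miR-19b-1 were left. In the plots these names are drawn with the sign Δ. Each of the 24 groups of genotype and tissue had 3 libraries, except the remainder of Delta_17_18_92 with 2. The labels name no Cre or promoter that would limit a deletion to endothelium, and they do not say whether a library held 1 embryo or a pool.

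Endothelial cells line all blood vessels, and the endocardium is the specialised endothelium of the heart, which at midgestation supplies the cells of the valve cushions. VEGF receptors drive the specification and growth of these cells, Tie receptors stabilise the young vessels, and adhesion and junction proteins hold the cells together as a sealed sheet. Members of the cluster are known to act on vessel growth, and miR-92a is known as a brake on it in adult endothelium.

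The mature miRNAs are shown because the genotypes are defined by them and because a shared seed (bases 2 to 8, in capitals) joins them into 4 families. The sequences are RefSeq entries on GRCm38.p6.

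miR-17-5p: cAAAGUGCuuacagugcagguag

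miR-20a-5p: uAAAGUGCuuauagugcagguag

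miR-18a-5p: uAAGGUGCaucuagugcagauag

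miR-19a-3p: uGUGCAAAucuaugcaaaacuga

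miR-19b-3p: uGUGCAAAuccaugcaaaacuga

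miR-92a-3p: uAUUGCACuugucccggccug

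The miR-17 and miR-20a seeds are identical, and so are those of miR-19a and miR-19b. The 3′ UTR used for each gene was the longest among its protein-coding transcripts with a CCDS (consensus coding sequence) tag. No member held a match to bases 2 to 8 followed by an A (the motifs GCACTTTA, GCACCTTA, TTTGCACA and GTGCAATA) in that 3′ UTR. Matches of 7 bases without that A were found in 3 members. Pecam1 (GRCm38 chr11:106654217-106750628, minus strand) held a miR-18 match at chr11:106654529-106654535, and Cldn5 (chr16:18776847-18778262, plus strand) held a miR-17 match at chr16:18777844-18777850. These 2 are printed on the gene's strand with the match in capitals, and the other, in Nfatc1, was a miR-92 match.

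Pecam1 site: gagcgagcacttaaagcGCACCTTgat

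Cldn5 site: ctcagaacagactacagGCACTTTtaa

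Of 19005 genes with a 3′ UTR, 11.9% held at least the match GCACTTT of the miR-17 family, 7.79% the match GCACCTT of miR-18, 10.9% TTTGCAC of miR-19 and 6.55% GTGCAAT of miR-92, on the sense strand. Tek, Tie1, Cdh5, Kdr, Egfl7, Emcn and Esam held no match to any of the 4 in this window.

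Libraries held 13532012 to 27477273 counts, and the smallest count of a member in any library was 19, for Cldn5 in heart. The hairpins of the cluster were listed at 0 in all 71 libraries, so the deletions could not be checked with them. The dissection matched the labels: Myh6, the atrial myosin heavy chain, averaged 8494 CPM (read counts scaled to library size) in wild-type heart, 73.2 in the remainder and 2.23 in tail bud. Of 8 macrophage and megakaryocyte markers, Ptprc, Cx3cr1, Tyrobp and C1qb were at or near 0 in all 3 wild-type tissues. The others were detected: Csf1r stood at 2.54 CPM in heart and 1.29 CPM in the remainder, Fcer1g at 0.357 to 0.728 CPM over the tissues, Pf4 at 2.02 CPM in heart, and Itga2b, a marker of megakaryocytes and blood progenitors, at 21.9 CPM in heart. Several libraries stood apart. In heart, Delta_17_18 replicate 2 had a summed level of 10 cardiomyocyte markers of 115635 CPM against 38350.9 to 51987.6 in the other hearts, and on average the lowest levels of the 10 endothelial genes, 0.30 below the heart mean on the log2 scale. In the remainder, Delta_17_18_92 replicate 2 had a cardiomyocyte sum of 712.2 CPM against at most 508.5 in the other libraries of that tissue, and the highest endothelial levels, 0.19 above its mean. Wild-type tail bud replicate 3 differed from replicates 1 and 2 in Kdr, Nfatc1 and Cldn5, as given below. The sum of 6 markers of visceral endoderm and yolk sac ran from 37.0 to 776.7 CPM in the remainder, with the highest values in Delta_92 replicate 1 (776.7 CPM), Delta_19 replicate 3 (619.8 CPM) and wild-type replicate 1 (470.3 CPM). Results of the 10 genes among genotypes in the remainder that ended without one of these are Cdh5 in Delta_17_18_92 (adjusted p = 0.158, edgeR) and Tek in Delta_17_18 (0.0843) without wild-type replicate 1, and the miR-17 term of Pecam1 (0.0632) without Delta_92 replicate 1. The sum of primitive erythroid markers ran from 772.7 CPM (Full-KO replicate 1) to 11708 CPM in tail bud, and its part in the tail bud results was not tested. In heart it ran from 752.3 to 12432 CPM, the highest in Delta_19 replicate 2. Among hearts that library also had the lowest cardiomyocyte sum (38350.9 CPM) and the highest sum of macrophage and megakaryocyte markers (51.1 CPM). The part of these in the heart results was not tested. In such bulk samples, fewer cells of a type and less RNA per cell cannot be told apart.

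The first question was where the genes are high in wild-type embryos. In heart, 9 of the 10 were higher than in tail bud and in the remainder, and Cldn5 was lower than in both. Nfatc1 showed the widest rise and Cldn5 the widest fall. Of the genes tested, 33.8% were higher and 34.8% lower in heart than in tail bud, 34% higher and 34.1% lower in heart than in the remainder, and 13.2% higher and 16.7% lower in tail bud than in the remainder (edgeR quasi-likelihood test, Benjamini-Hochberg adjusted p below 0.05).

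Nfatc1, the calcineurin-responsive transcription factor of the endocardium, was at 119.6, 127 and 111 CPM in the 3 wild-type hearts. It was at 11.0, 10.8 and 7.46 CPM in tail bud and at 9.01, 7.92 and 8.78 CPM in the remainder. The hearts stood far above all other wild-type libraries, by 3.59 ± 0.12 (log2 ± SE, 12.0-fold, adjusted p = 3.83e-11, edgeR quasi-likelihood test) over tail bud and by 3.79 ± 0.12 (13.8-fold, adjusted p = 2.97e-11) over the remainder. Tail bud and the remainder did not differ past the threshold, with a difference of 0.20 and a 95% interval of −0.05 to 0.45. Without wild-type tail bud replicate 3, its low library, that difference was 0.34 and passed (adjusted p = 0.00505).

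Among the receptors, Tek, the angiopoietin receptor TIE2, was at 173, 173 and 177 CPM in heart. It was at 33.5, 34.4 and 28.9 CPM in tail bud and at 45.4, 45.3 and 46.0 CPM in the remainder, so that the tissues did not overlap. The rise in heart was 2.42 ± 0.07 on the log2 scale over tail bud and 1.93 ± 0.06 over the remainder. Tie1, the related orphan receptor, was at 190.4, 187 and 197 CPM in heart, at 54.5, 57.4 and 59.8 CPM in tail bud and at 50.2, 48.7 and 49.9 CPM in the remainder. Its rise was 1.74 ± 0.05 over tail bud and 1.94 ± 0.05 over the remainder. Kdr, the main VEGF receptor of endothelium (VEGFR2), was at 270.1, 266 and 285 CPM in heart, at 107, 105 and 76.9 CPM in tail bud and at 125, 127 and 131 CPM in the remainder. Kdr and Tek were lower in tail bud than in the remainder, by −0.40 ± 0.10 and −0.49 ± 0.07, while Tie1 was higher by 0.20 ± 0.05.

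Among the adhesion and junction genes, Pecam1 (CD31, an adhesion molecule at the contacts between endothelial cells) was at 119, 128 and 119 CPM in heart, at 42.2, 48.8 and 49.2 CPM in tail bud and at 35.2, 33.2 and 35.4 CPM in the remainder. Cdh5 (VE-cadherin, the cadherin of endothelial junctions) was at 265, 284 and 275 CPM in heart, at 129, 145 and 125 CPM in tail bud and at 104, 107 and 112 CPM in the remainder. Both fell in the order heart, tail bud, remainder, with no overlap between tissues, and the rise in heart over the remainder was 1.81 ± 0.07 for Pecam1 and 1.35 ± 0.06 for Cdh5. Esam, an immunoglobulin-type molecule of the same junctions, was at 34.1, 36.9 and 35.1 CPM in heart, at 25.4, 24.1 and 22.2 CPM in tail bud and at 21.0, 20.5 and 18.4 CPM in the remainder. Cldn5, the tight-junction claudin of endothelium, went the other way, with 1.79, 2.38 and 2.00 CPM in heart. It was at 23.7, 23.7 and 33.7 CPM in tail bud and at 18.6, 19.1 and 21.2 CPM in the remainder. Its heart level was lower by −3.71 ± 0.18 against tail bud and −3.26 ± 0.18 against the remainder (adjusted p = 9.49e-10 and 3.97e-09), and every heart library was below every other wild-type library.

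Egfl7, a secreted protein of vessel walls whose gene also hosts miR-126a, was at 77.5, 77.0 and 78.9 CPM in heart, at 54.2, 53.0 and 60.6 CPM in tail bud and at 51.4, 44.0 and 48.6 CPM in the remainder. Its rise in heart was the smallest among the 9 genes, 0.47 ± 0.07 over tail bud and 0.69 ± 0.07 over the remainder. Emcn (endomucin, a sialomucin of venous and capillary endothelium and endocardium) was at 35.3, 42.5 and 42.9 CPM in heart, at 18.4, 21.4 and 24.1 CPM in tail bud and at 22.4, 24.5 and 23.4 CPM in the remainder. Emcn did not differ past the threshold between tail bud and the remainder (−0.14, 95% interval −0.35 to 0.07). In all, 28 of the 30 tissue differences of the 10 genes passed, by edgeR and by DESeq2. Between tail bud and the remainder, 4 of them ended when 1 wild-type library was left out: Egfl7 in 6 of 9 such fits (adjusted p up to 0.181), Esam in 4 (up to 0.13), Cldn5 in 2 (up to 0.0779) and Tie1 in 1 (0.0542).

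**Figure D1:**
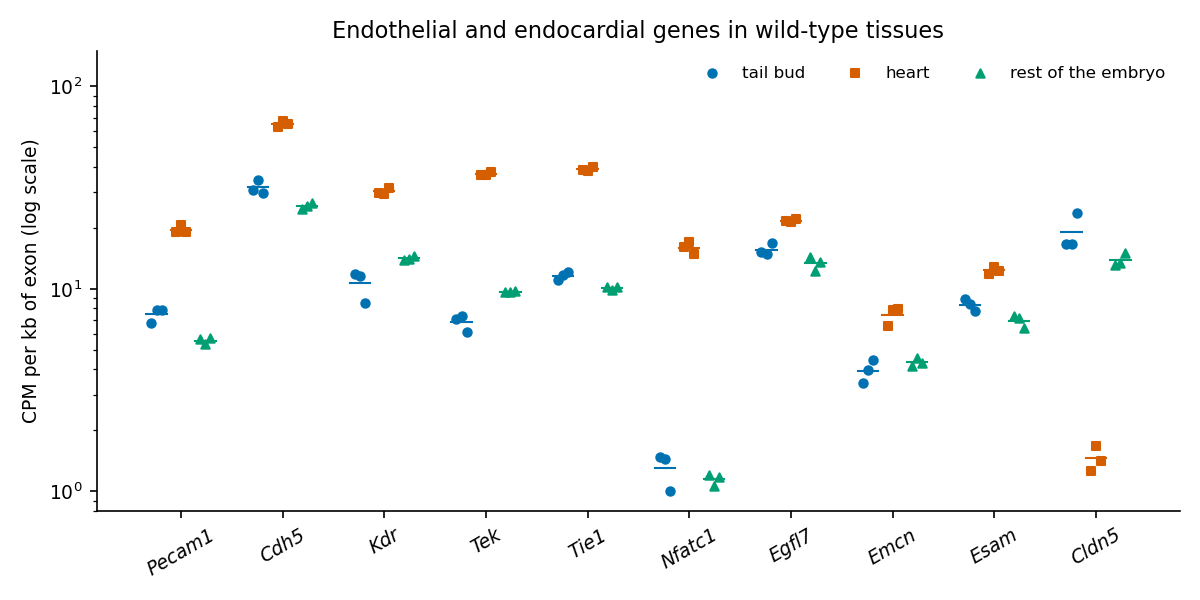
Wild-type level of each of the 10 genes in heart, tail bud and the remainder (CPM per kb of exon, log axis), 1 point per library and 3 libraries per tissue. The heart points lie highest for 9 genes. Nfatc1 averages 15.9 CPM per kb in heart, 1.30 in tail bud and 1.15 in the remainder. Cldn5 averages 1.45 CPM per kb in heart, 19.1 in tail bud and 13.9 in the remainder.

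Set against each other per kilobase of exon, Cdh5 was the highest of the 10 in all 3 tissues, at 65.3 ± 2.23 CPM per kb in heart (SD, n = 3), 31.7 ± 2.55 in tail bud and 25.6 ± 0.935 in the remainder. In heart the order below it was Tie1 at 38.9, Tek at 36.9, Kdr at 30.3, Egfl7 at 21.7, Pecam1 at 19.6, Nfatc1 at 15.9, Esam at 12.3, Emcn at 7.44 and Cldn5 at 1.45 CPM per kb. No neighbours in that order overlapped between the 3 libraries. In tail bud Cldn5 was second at 19.1 CPM per kb, and its libraries overlapped those of Egfl7 at 15.6. The stretch from Tie1 at 11.6 through Kdr at 10.7, Esam at 8.33 and Pecam1 at 7.51 to Tek at 6.85 overlapped from each gene to the next. In the remainder Kdr at 14.1, Cldn5 at 13.9 and Egfl7 at 13.4 CPM per kb overlapped. Nfatc1 was last in both of these tissues, at 1.30 and 1.15 CPM per kb. Divided by the longest transcript instead of all exons, Cdh5 stayed first, Cldn5 stayed last in heart and Nfatc1 last elsewhere, while Kdr moved to second in heart and Egfl7 to second in the other tissues.

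The second question was which genes differ between each mutant genotype and wild type. Of 210 such tests (10 genes, 7 mutants, 3 tissues), 11 passed: 5 for Pecam1, 3 for Tek and 1 each for Cdh5, Tie1 and Cldn5. By tissue, 6 were in the remainder, 3 in tail bud and 2 in heart. The 7 comparisons in a tissue share the same wild-type libraries. DESeq2 called 14 of the 210, and 36 had an unadjusted edgeR p below 0.05. Shares of all genes were counted only for the adjusted edgeR p. Here and below, counts by DESeq2 or by unadjusted p therefore have no background and cannot be read against one.

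For background, the share of all genes tested that passed in tail bud was 10.4% in Full-KO, 1.77% in Delta_17, 0.129% in Delta_18, 1.03% in Delta_19, 0.359% in Delta_92, 8.31% in Delta_17_18 and 5.57% in Delta_17_18_92. In heart it was 3.91%, 0.555%, 0.0418%, 0.406%, 0.0716%, 1.12% and 1.89% in the same order of genotypes. In the remainder it was 6.66%, 1.56%, 0.36%, 1.88%, 0.588%, 4.44% and 5.62%. Against these shares, 1 of the 10 genes passed in each tissue in Full-KO, which is near the background. In Delta_17_18_92, 4 of 10 passed in the remainder, 1 in tail bud and 1 in heart, all of them higher, with a median difference over the 10 of 0.17 on the log2 scale in the remainder against −0.01 over all genes. In the single-family deletions Delta_17, Delta_18, Delta_19 and Delta_92 none of the 10 passed in any tissue by edgeR or DESeq2, with 15 tests at an unadjusted edgeR p below 0.05.

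Pecam1 was higher than wild type in Full-KO heart and remainder and in all 3 tissues of Delta_17_18_92. In heart, where wild type held 119, 128 and 119 CPM, Full-KO held 136, 146 and 145 CPM and Delta_17_18_92 held 166, 142 and 160.2 CPM. In the remainder, where wild type held 35.2, 33.2 and 35.4 CPM, Full-KO held 39.1, 41.1 and 47.0 CPM and Delta_17_18_92 held 46.5 and 48.3 CPM. All libraries of both genotypes lay above all wild-type libraries in these tissues. The difference was 0.23 ± 0.07 in Full-KO heart (adjusted p = 0.04, edgeR quasi-likelihood test), 0.34 ± 0.06 in Delta_17_18_92 heart (adjusted p = 0.00364), 0.29 ± 0.06 in Full-KO remainder (adjusted p = 0.00329) and 0.44 ± 0.07 in Delta_17_18_92 remainder (adjusted p = 8.1e-05).

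In tail bud Pecam1 was at 45.3, 58.9 and 53.1 CPM in Full-KO, which overlapped wild type (0.16, 95% interval −0.02 to 0.33), and at 56.7, 57.7 and 59.3 CPM in Delta_17_18_92, which did not (0.30 ± 0.09, adjusted p = 0.0497). The Delta_17_18_92 differences in heart and in the remainder passed whichever library was left out (adjusted p up to 0.0364 and 0.00567). The tail bud difference ended in 16 of 24 such fits (up to 0.14), the Full-KO heart difference in 5, each without a wild-type or Full-KO heart library (up to 0.163), and the Full-KO difference in the remainder without Full-KO replicate 3 (0.0581). Leaving out the heart library that stood apart gave 0.23 (adjusted p = 0.0255) and 0.34 (0.00156) in heart. Pecam1 is also made by platelets, megakaryocytes and some leukocytes. No marker of macrophages and megakaryocytes that could be tested (4 in heart and in the remainder, 3 in tail bud) passed in Full-KO or Delta_17_18_92. Their median difference was 0.02 in Full-KO heart, 0.18 in Full-KO remainder, 0.26 in Delta_17_18_92 heart and 0.13 in Delta_17_18_92 remainder. In fits without the heart library that stood apart it was 0.22 in Full-KO heart and 0.42 in Delta_17_18_92 heart, and without Delta_17_18_92 replicate 2 it was 0.37 in Delta_17_18_92 remainder, each over 5 markers with 0 past the threshold. Their part in the Pecam1 result was not tested.

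In the other mutants no Pecam1 difference passed. The lowest values were those of Delta_19 in heart, at 111, 101 and 118 CPM (−0.14 ± 0.07, adjusted p = 0.402), below all 3 wild-type hearts. Replicate 2 of Delta_19 heart had the highest erythroid sum among hearts, as given above, and the part of this was not tested. Delta_17_18, which keeps miR-19a, miR-19b-1 and miR-92a-1, held 124, 103 and 125 CPM in heart and 36.5, 39.0 and 37.2 CPM in the remainder. Its value of 103 CPM is that of the heart library that stood apart. Delta_92, which lacks miR-92a-1 alone, held 112 to 134 CPM in heart, where it overlapped wild type. In the remainder it held 35.7 to 38.0 CPM, above wild type at 33.2 to 35.4 CPM.

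**Figure D2:**
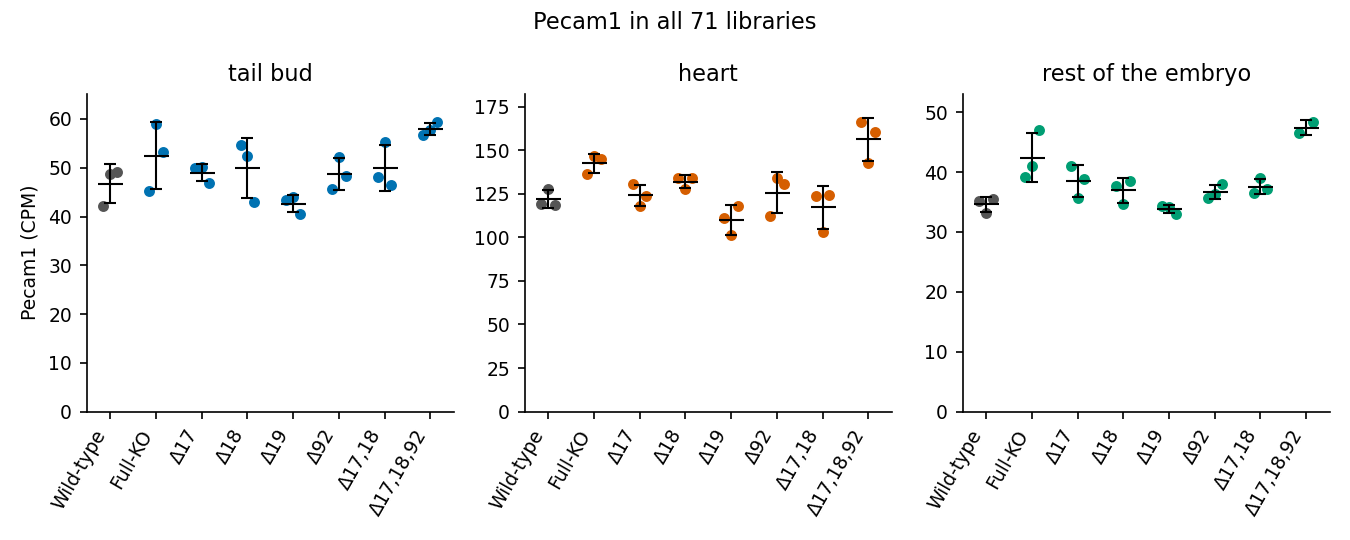
Pecam1 level (CPM, axis from 0) in each of the 71 libraries, by genotype, in tail bud, heart and the remainder, with mean and SD bars. The Full-KO and Delta_17_18_92 libraries lie above all wild-type libraries in heart and in the remainder, at 136 to 166 CPM and 39.1 to 48.3 CPM.

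Tek moved in both directions, depending on the genotype. In the remainder, where wild type held 45.4, 45.3 and 46.0 CPM, it was at 41.7, 36.3 and 36.2 CPM in Delta_17_18 and at 52.1 and 61.3 CPM in Delta_17_18_92. The 2 genotypes lay on opposite sides of wild type with no overlap, and they differ by the loss of miR-92a-1; they were not compared with each other directly. The differences from wild type were −0.26 ± 0.07 (adjusted p = 0.0257, edgeR quasi-likelihood test) and 0.31 ± 0.08 (adjusted p = 0.0113). Delta_18 held 38.3, 36.5 and 41.3 CPM, also below every wild-type library, without passing (−0.24 ± 0.07, adjusted p = 0.133). Delta_92 held 48.9, 51.3 and 49.1 CPM and Full-KO 48.0, 47.0 and 55.0 CPM, above every wild-type library and also without passing.

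In tail bud, where wild type held 33.5, 34.4 and 28.9 CPM, Tek was at 26.6, 27.6 and 24.1 CPM in Delta_17_18, again below all wild-type libraries (−0.31 ± 0.10, adjusted p = 0.0474). Delta_17 held 25.2, 32.1 and 26.2 CPM, Delta_92 38.3, 33.7 and 35.5 CPM, and Delta_17_18_92 30.1, 34.7 and 35.2 CPM. All of these overlapped wild type, as did Full-KO at 27.9, 34.9 and 28.3 CPM. In heart Tek stayed between 139 and 198 CPM in all 24 libraries with no difference past the threshold, and the lowest of them was the Delta_17_18 library that stood apart. The fall in Delta_17_18 ended in 15 of 24 fits without 1 library in tail bud (adjusted p up to 0.183) and in 5 of 23 in the remainder, each without a wild-type library or a Delta_17_18 library (up to 0.149).

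**Figure D3:**
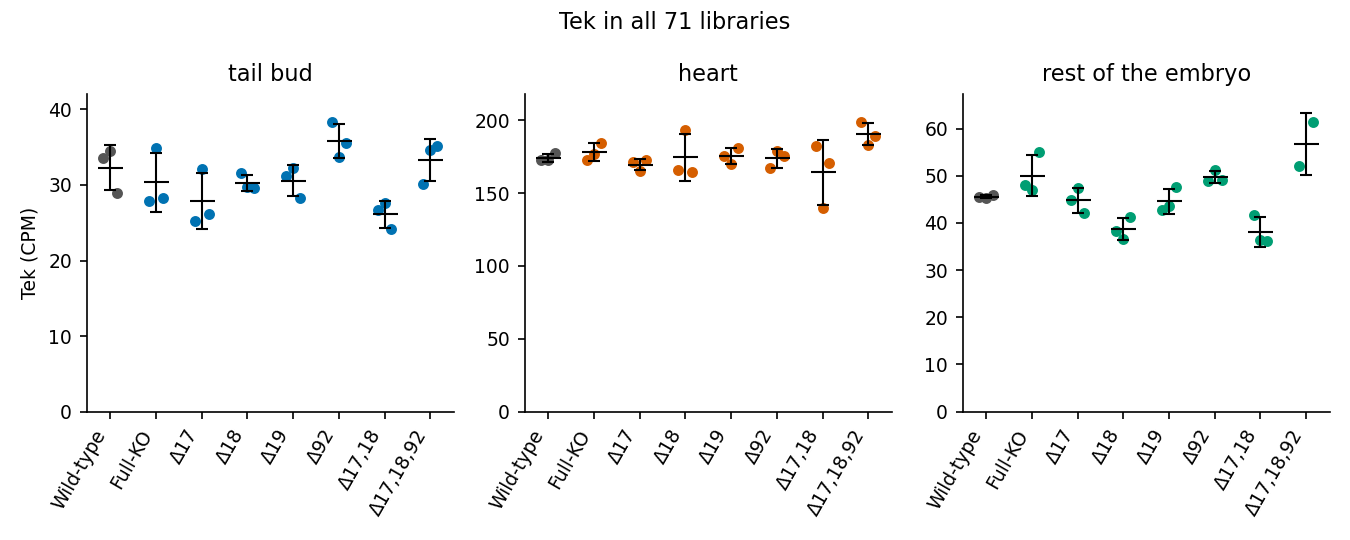
Tek level (CPM, axis from 0) in each of the 71 libraries, by genotype, in tail bud, heart and the remainder, with mean and SD bars. In the remainder the Delta_17_18 libraries at 36.2 to 41.7 CPM lie below wild type at 45.3 to 46.0 CPM, and the Delta_17_18_92 libraries at 52.1 and 61.3 CPM lie above it.

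Tie1 and Cdh5 rose in the remainder of Delta_17_18_92. Tie1 was at 56.8 and 62.3 CPM there against 50.2, 48.7 and 49.9 CPM in wild type (0.25 ± 0.06, adjusted p = 0.00718, edgeR quasi-likelihood test). Full-KO at 56.8, 53.7 and 55.3 CPM and Delta_92 at 55.6, 55.6 and 58.1 CPM also lay above every wild-type library, with differences of 0.15 and 0.18 that did not pass (adjusted p = 0.0933 and 0.157). Cdh5 was at 119 and 128 CPM in Delta_17_18_92 against 104, 107 and 112 CPM in wild type (0.19 ± 0.06, adjusted p = 0.0401). Both Delta_17_18_92 libraries lay above every wild-type library for Tie1, Cdh5, Tek and Pecam1. Leaving out replicate 2, the library with the high cardiomyocyte sum, left 1 library in the group, assumed to vary like the other groups. The differences were then 0.19 for Tie1, 0.14 for Cdh5, 0.19 for Tek and 0.42 for Pecam1. In that fit Pecam1 passed, and Tie1, Cdh5 and Tek did not. With 1 library left, it cannot show whether these rises depend on replicate 2. The cardiomyocyte markers moved with them: 5 of 10 were higher in Delta_17_18_92 remainder, with a median difference of 0.95, and 0 of 10 passed without replicate 2, with a median of 0.62. Replicate 1 had a cardiomyocyte sum of 489.4 CPM, above the 3 wild-type libraries at 300.3 to 387.2 CPM. Markers of visceral endoderm and yolk sac had a median difference of −2.93 in the same comparison and of −2.31 in Full-KO remainder, with 0 of 6 past the threshold in both. Their sum was 48.5 to 470.3 CPM in wild type, 48.0 and 50.3 CPM in Delta_17_18_92 and 38.9 to 57.5 CPM in Full-KO. The part of heart tissue or of yolk sac tissue in these rises was not tested. Cdh5 also ended without wild-type replicate 1 (0.158) or replicate 2 (0.0931), and with the replicate number as a block (0.0584).

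Cldn5 fell in Full-KO tail bud, to 17.9, 20.8 and 21.2 CPM from 23.7, 23.7 and 33.7 CPM in wild type, with no overlap (−0.44 ± 0.12, adjusted p = 0.0173, edgeR quasi-likelihood test). It was also below all wild-type libraries in tail bud of Delta_17_18, at 20.5, 22.4 and 19.9 CPM (−0.37, adjusted p = 0.0505), and of Delta_17_18_92, at 19.0, 21.1 and 22.5 CPM (−0.37, adjusted p = 0.0566). These comparisons share the high wild-type replicate 3. Without it the Full-KO difference was −0.25 (adjusted p = 0.173), and it also ended without Full-KO replicate 1 (0.087) and in a fit of these 2 groups alone (0.206). In the same comparison the 8 erythroid markers had a median difference of −0.81 with 0 past the threshold, and their part in the Cldn5 result was not tested. In heart, where Cldn5 stood at 1.13 to 2.91 CPM in all 24 libraries, the intervals were wide, for example −0.17 to 0.84 in Delta_19.

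Kdr, Nfatc1, Egfl7, Emcn and Esam passed in no mutant. Kdr differed by −0.14 to 0.12 over the 21 comparisons, Nfatc1 by −0.22 to 0.24, Egfl7 by −0.23 to 0.15, Emcn by −0.28 to 0.24 and Esam by −0.23 to 0.14 on the log2 scale. For Kdr the 95% interval of the lowest value, Delta_17_18_92 heart, ran from −0.29 to 0.02. Nfatc1 in heart held 132, 122 and 123 CPM in Full-KO against 119.6, 127 and 111 CPM in wild type, which overlapped. The nearest to the threshold among the 5 genes were Egfl7 in Full-KO tail bud at 47.1, 50.0 and 48.5 CPM, below all wild-type libraries (−0.21, adjusted p = 0.0607), and Emcn in Delta_17_18_92 remainder at 29.8 and 26.1 CPM, above them (0.24, adjusted p = 0.0775).

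**Figure D4:**
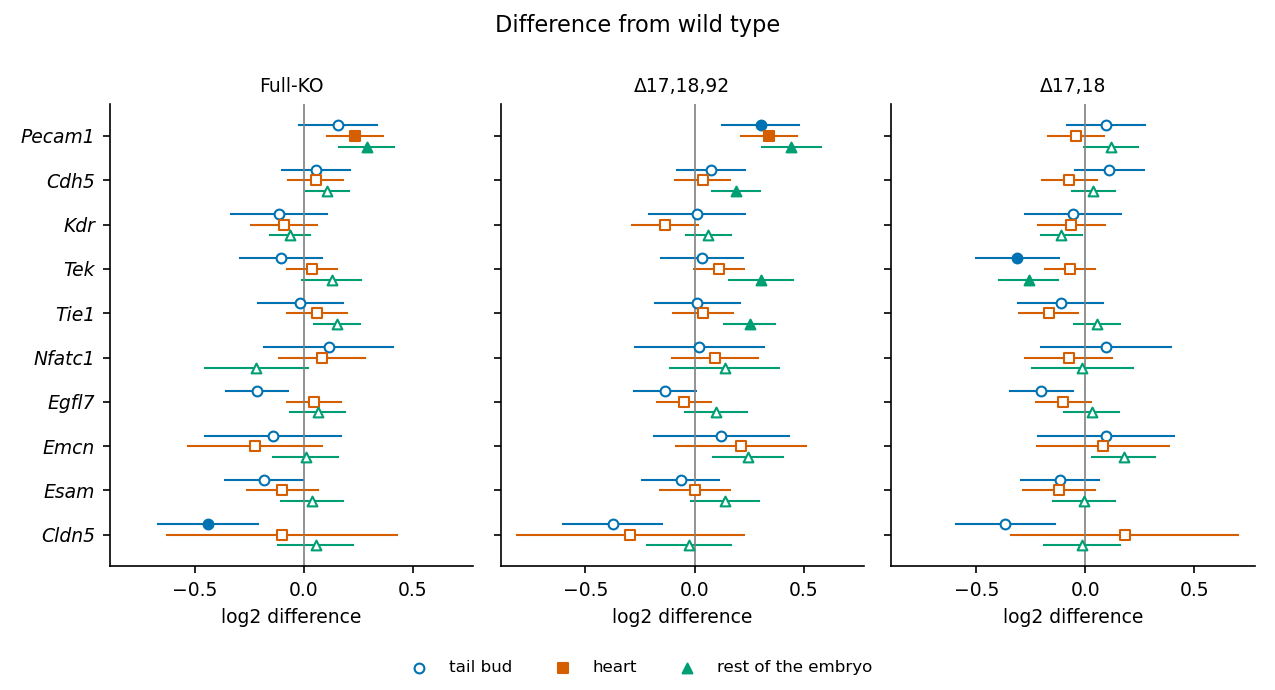
Log2 difference from wild type of the 10 genes in Full-KO, Delta_17_18_92 and Delta_17_18, with 95% intervals, by tissue (filled symbols passed the adjusted threshold of 0.05). Pecam1 is filled in all 3 tissues of Delta_17_18_92, from 0.30 to 0.44, while Tek is filled below 0 in Delta_17_18 and above 0 in the remainder of Delta_17_18_92.

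The third question was which seed family the differences go with. A model over all libraries of a tissue gave each of the 4 families 1 additive term, the log2 change that goes with its loss whatever else is lost. It uses the same libraries as the comparisons above and is no independent evidence. Of 120 terms (10 genes, 4 families, 3 tissues), 9 passed: 6 for miR-92, 2 for miR-17, 1 for miR-19 and 0 for miR-18. For miR-18, 4 terms had an unadjusted edgeR p below 0.05 and DESeq2 called 0. Over all 120 terms DESeq2 called 13, and 32 had an unadjusted edgeR p below 0.05. The background share of all genes was 5.44% for miR-17, 0.323% for miR-18, 5.33% for miR-19 and 3.66% for miR-92 in tail bud. It was 3.61%, 0.0896%, 4.37% and 1.58% in heart and 7.49%, 0.748%, 6.59% and 5.18% in the remainder. For miR-92 in the remainder 4 of the 10 genes passed, all higher, with a median term of 0.10 against −0.01 over all genes.

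Loss of miR-92 went with higher Tek in tail bud (0.24 ± 0.05, adjusted p = 0.00558, edgeR quasi-likelihood test), and likewise in the remainder (0.30 ± 0.05, adjusted p = 0.000429). It also went with higher Tie1 in the remainder (0.16 ± 0.03, adjusted p = 0.000433). These 3 terms passed whichever library was left out, with adjusted p up to 0.0273, 0.00142 and 0.00321, and without Delta_17_18_92 replicate 2 they were 0.25 for Tek and 0.15 for Tie1 in the remainder. Every Delta_92 library of the remainder had a cardiomyocyte sum (399.1 to 463.1 CPM) above every wild-type one, as did both Delta_17_18_92 libraries. The miR-92 term of the cardiomyocyte markers had a median of 0.30 in the remainder with 0 of 10 past the threshold, and of −0.17 in tail bud with 0 of 9. Their part in the miR-92 terms was not tested. Pecam1 was higher with loss of miR-92 in heart (0.19 ± 0.05, adjusted p = 0.036) and in the remainder (0.15 ± 0.04, adjusted p = 0.0221), and Cdh5 in the remainder (0.10 ± 0.03, adjusted p = 0.0224). The Pecam1 term in heart ended in 11 of 24 fits without 1 library (adjusted p up to 0.0819). In the remainder the Pecam1 term ended without Delta_17_18_92 replicate 2 (0.0649), and the Cdh5 term without that library (0.059) or without Delta_92 replicate 2 (0.0552). Esam had a term of 0.13 there (adjusted p = 0.057).

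The other families had fewer terms past the threshold. Loss of miR-17 went with higher Pecam1 in the remainder (0.14 ± 0.04, adjusted p = 0.0349, edgeR quasi-likelihood test), which ended in 5 of 23 fits without 1 library (up to 0.153). It went with lower Egfl7 in heart (−0.14 ± 0.04, adjusted p = 0.0233), where Delta_17 held 71.3, 71.2 and 72.1 CPM, below all wild-type hearts at 77.0 to 78.9 CPM, while Full-KO at 78.6, 77.6 and 83.7 CPM was not below them. That term ended in 4 of 24 fits without 1 library (up to 0.0893). Loss of miR-19 went with lower Emcn in the remainder (−0.17 ± 0.05, adjusted p = 0.0178). Delta_19 held 20.1, 22.1 and 24.0 CPM there and Full-KO 24.0, 21.5 and 25.5 CPM, against 25.1, 27.4 and 27.1 CPM in Delta_17_18 and 29.8 and 26.1 CPM in Delta_17_18_92, which keep miR-19. Wild type at 22.4 to 24.5 CPM and Delta_92 at 22.7 to 25.7 CPM keep it too and overlapped Delta_19 and Full-KO. The same term was −0.23 in tail bud and −0.28 in heart, without passing (adjusted p = 0.137 and 0.0831), and in the remainder it ended without Delta_19 replicate 1 (0.0936) or Full-KO replicate 2 (0.0741).

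**Figure D5:**
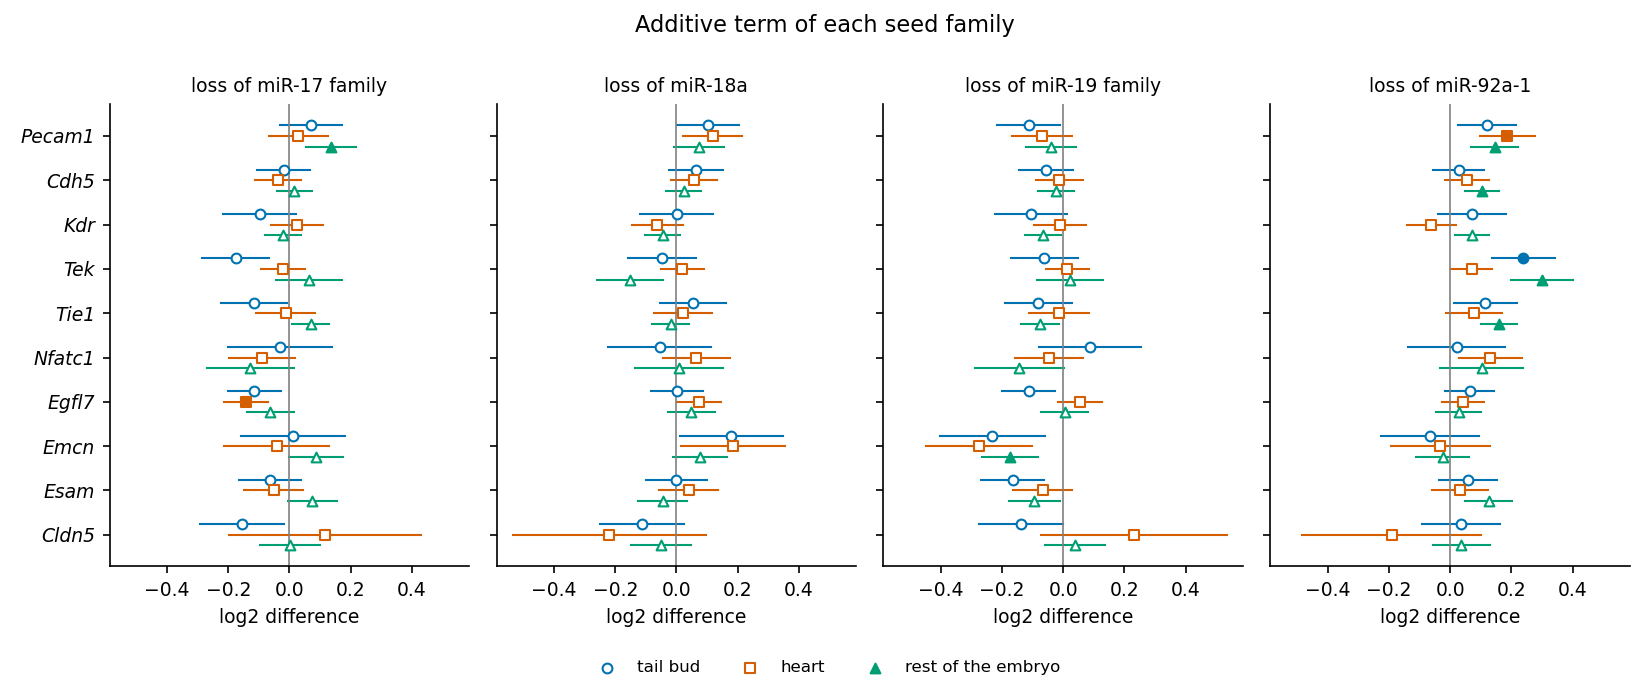
Additive terms for the loss of each seed family, in log2 units with 95% intervals, for the 10 genes in 3 tissues (filled symbols passed the adjusted threshold of 0.05). The 6 filled terms of miR-92 lie between 0.10 and 0.30, and the filled Emcn term of miR-19 lies at −0.17.

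Full-KO and Delta_17_18_92 differ by miR-19a and miR-19b-1, and their direct comparison passed for 0 of 30 tests by edgeR, with 1 call by DESeq2. The background share at the adjusted threshold was 0.341% (tail bud), 3.76% (heart) and 1.78% (remainder). At an unadjusted edgeR p below 0.05 there were 6, of which 5 were in the remainder and 1 in heart. In the remainder, where Delta_17_18_92 had 2 libraries, the median difference over the 10 genes was −0.11 on the log2 scale, against 0.0007 over all genes. The DESeq2 call was Emcn in heart, at 29.7, 34.9 and 37.9 CPM in Full-KO, below all of 54.9, 40.4 and 46.3 CPM in Delta_17_18_92 (−0.44 ± 0.15, edgeR adjusted p = 0.119, 95% interval −0.74 to −0.14). Departure from additivity (3 degrees of freedom) passed for 0 of 30 tests by edgeR and 0 by DESeq2, with 4 at an unadjusted edgeR p below 0.05 and a background of 0.0176%, 0.0597% and 0.103% in tail bud, heart and the remainder. The lowest of the 4 were Tek in the remainder (unadjusted p = 0.00131, adjusted p = 0.232) and Pecam1 in heart (0.00341 and 0.211).

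Whether a mutant's effect differed between tissues was tested for each of the 7 mutants, in all for 70 tests. None passed by edgeR, with 6 at an unadjusted p below 0.05. For Full-KO, 2 of these were Egfl7 (unadjusted p = 0.0155, adjusted p = 0.575) and Cldn5 (0.0378 and 0.664), and DESeq2 called 0. DESeq2 was not run for the other 6 mutants, whose test was added after the first results were seen. The background was 0.0399% in Full-KO, 0.0265% in Delta_17, 0% in Delta_18, 0.117% in Delta_19, 0.0053% in Delta_92, 0.106% in Delta_17_18 and 0.228% in Delta_17_18_92. A gene past the threshold in 1 tissue and not in another is therefore not shown to differ between tissues here.

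Around the 10 genes, 5 further lists of endothelial genes were read in Full-KO against the background shares of that genotype given above. Of 13 Notch, ephrin and ALK1 genes of arteries and veins, 3 rose in tail bud, 1 rose in heart, 1 rose in the remainder, and none fell. In Full-KO tail bud, markers of other cell types rose as well: 2 of 7 somite and mesenchyme markers, Pdgfra (0.40, adjusted p = 2.06e-05, edgeR) and Pax3 (0.74, 0.00144), and 1 of 5 neural markers, Tubb3 (0.51, 0.0185). Pdgfra also rose in the remainder (0.17, 0.0279), and their part in the list results was not tested. Unc5b, a netrin receptor of arterial and tip cells, rose in all 3 tissues, by 0.34 ± 0.07 in tail bud (adjusted p = 0.00146, edgeR quasi-likelihood test), 0.38 ± 0.07 in heart (0.00172) and, in the remainder, 0.27 ± 0.05 (0.00105). Ephb4, the venous receptor of ephrin-B2, rose in tail bud by 0.25 ± 0.04 (adjusted p = 0.000403), and so did Jag1, a Notch ligand, by 0.26 ± 0.07 (0.0214). Of 14 VEGF, angiopoietin and apelin ligands and receptors, 2 rose and 1 fell in tail bud, 1 rose and 1 fell in heart, and 1 fell in the remainder. Ptprb (VE-PTP, the phosphatase that acts on TIE2 and VE-cadherin) rose by 0.41 ± 0.08 in heart (adjusted p = 0.00215) and 0.30 ± 0.10 in tail bud (0.0427). Pgf, placental growth factor, fell by 0.58 ± 0.18 on the log2 scale in tail bud (adjusted p = 0.0413) and by 0.47 ± 0.13 in the remainder (0.0228). The semaphorin and VEGF co-receptor Nrp2 rose in tail bud by 0.23 ± 0.06 (0.0215), and Flt4, the lymphatic VEGF receptor that early endocardium also expresses, fell in heart by 0.27 ± 0.08 (0.0485).

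Of 20 other endothelial surface and junction genes, 1 rose and 1 fell in tail bud, none passed in heart and 1 rose in the remainder. They were Vwf, the von Willebrand factor, in tail bud (0.50 ± 0.10, adjusted p = 0.00269, edgeR quasi-likelihood test), Ecscr in tail bud (−0.33 ± 0.10, 0.037) and S1pr1, the sphingosine-1-phosphate receptor, in the remainder (0.36 ± 0.08, 0.0036). Of 14 endothelial transcription factors, Klf2, which responds to blood flow, rose in heart (0.61 ± 0.12, adjusted p = 0.00281) and none passed elsewhere. Of 12 genes of endocardium and of calcineurin and NFAT signalling, the calcineurin subunit Ppp3cb rose in the remainder (0.15 ± 0.04, adjusted p = 0.0171) and in tail bud (0.15 ± 0.04, 0.0256). In the remainder the subunit Ppp3r1 rose too (0.16 ± 0.05, 0.0478). Unc5b in heart and the remainder, Klf2, Ptprb in heart, Vwf and S1pr1 passed under every alternative run. Without wild-type tail bud replicate 3, Nrp2 and Ptprb in tail bud no longer passed (adjusted p = 0.147 and 0.251), nor did Pgf (which ended in 5 of 30 alternatives, adjusted p up to 0.19 without a library, Full-KO replicate 1), Jag1 (0.121) or Ecscr (0.154). Flt4 in heart ended in 17 of 30 alternatives, Ppp3r1 in 16 of 29, and Pgf in the remainder in 5 (adjusted p up to 0.142 without a library, Full-KO replicate 2). Ppp3cb ended in 4 alternatives in tail bud and 3 in the remainder.

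For loss of miR-92 in the remainder, 6 of the 20 surface and junction genes, 4 of the 14 ligands and receptors and 2 of the 12 endocardium and calcineurin genes rose, none of the 3 lists had a fall, and 0 of the 14 transcription factors and 0 of the 13 Notch, ephrin and ALK1 genes passed, against the background of 5.18%. Chosen after their values were seen, examples are Plvap, the diaphragm protein of endothelial vesicles (0.19 ± 0.03, adjusted p = 3.36e-05), and the VEGF co-receptor Nrp1 (0.25 ± 0.04, 6.9e-05). Angpt1, the ligand of the receptor that Tek encodes, also rose there (0.25 ± 0.04, adjusted p = 3e-04, edgeR quasi-likelihood test). Of the calls in the remainder, Clec14a ended in 4 alternatives (adjusted p up to 0.16, edgeR), Ptprb in 1 (0.148) and Calcrl in 1 (0.0502). The term was not particular to the remainder. In tail bud Nrp1, Nrp2 and Angpt1 of the 14 ligands and receptors rose, and so did Ephb4 of the 13 Notch, ephrin and ALK1 genes. Of the 12 endocardium and calcineurin genes Ppp3cb and Has2 rose there and Nfatc4 fell, against a background of 3.66% of all genes. In heart Ppp3cb of those 12, Klf2 of the 14 transcription factors, Ptprb of the 14 ligands and receptors and S1pr1 of the 20 surface and junction genes rose. The background there was 1.58%. Of these, Nfatc4 ended in 12 alternatives, Angpt1 in 5, and Ephb4, Klf2 and Ptprb in 1 each.

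The 10 genes did not vary as 1 block from library to library. With each tissue's mean removed, Cdh5 and Tie1 were the pair most alike over the 71 libraries (Pearson r = 0.744, and 0.672, 0.795 and 0.789 within tail bud, heart and the remainder), followed by Pecam1 and Cdh5 (0.68). Cdh5 followed the mean of the other 9 genes most closely (0.795), then Esam (0.729) and Tie1 (0.722). Cldn5 (0.107), Nfatc1 (0.214) and Emcn (0.226) followed it least, and Cldn5 was also the gene with the lowest mean level. For Nfatc1 this differed by tissue. Its r with the single other genes ran from 0.011 (Cldn5) to 0.741 (Esam) within heart, with 0.736 for Cdh5. It ran from −0.394 (Egfl7) to 0.431 (Kdr) within tail bud and from −0.052 (Emcn) to 0.432 (Kdr) within the remainder. The hearts include Delta_17_18 replicate 2, which stood apart, and its part in these correlations was not tested. Of 10256 other genes whose log2 CPM averaged 3 or more, those most like the mean of the 10 were Plvap (r = 0.796), Nid1 (0.709), She (0.702), Bcl6b (0.7), Flt1 (0.697), Arap3 (0.683), Thsd1 (0.66) and Stab1 (0.656). Plvap ranked first by Spearman correlation too and with genotype means removed as well. These are descriptions over libraries that share genotypes, depth and dissection.

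The promoters of Tie1 and Tek, the receptor pair, are shown because both genes moved with the miR-92 term in the remainder. The windows run from 250 bases before to 50 after the start site in RefSeq on GRCm38.p6, at chr4:118489800-118490099 (minus strand) for Tie1 and chr4:94739039-94739338 (plus strand) for Tek. Capitals mark AGGAAG or its reverse complement. This motif is longer than GGAA, the core of sites for ETS factors, which act on many endothelial promoters. The shorter core was not counted, and both printed windows also hold it or its reverse complement outside the capitals. A window without a match to AGGAAG is therefore not shown to lack the core.

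Tie1: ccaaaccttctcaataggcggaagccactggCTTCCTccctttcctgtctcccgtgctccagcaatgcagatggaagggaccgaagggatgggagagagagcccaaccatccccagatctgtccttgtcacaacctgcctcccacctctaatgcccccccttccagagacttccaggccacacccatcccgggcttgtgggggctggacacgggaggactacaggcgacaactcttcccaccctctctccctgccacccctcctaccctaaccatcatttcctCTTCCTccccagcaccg

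Tek: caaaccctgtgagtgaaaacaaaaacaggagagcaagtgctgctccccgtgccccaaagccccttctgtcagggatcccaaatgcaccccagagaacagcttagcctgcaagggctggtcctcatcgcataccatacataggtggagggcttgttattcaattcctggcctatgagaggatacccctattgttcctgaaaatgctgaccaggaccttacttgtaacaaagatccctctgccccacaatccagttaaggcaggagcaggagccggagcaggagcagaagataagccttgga

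The Tie1 window held 2 matches and the Tek window 0, and 35.4% of 32851 promoter windows of the same length held at least 1 on either strand. Among the other members with a window, Emcn held 2, Kdr 0 and Cldn5 0, and the 3 Egfl7 windows held 3, 2 and 0.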

How the data were processed

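The authors deposited raw counts, 1 whole number per gene and library, from single reads of 50 bases. Tools named in the submitters' processing notes are featureCounts (Subread 1.4.2), STAR 2.3.0 and SAMtools 0.1.14, with the builds mm9 and NCBIM37. The sources used here give no annotation release, strand setting or rule for multi-mapping reads. Groups and replicate numbers came from the sample titles. Gene IDs were named through GENCODE (GRCm38, 32897 of 37620 IDs).

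Each tissue was fitted with all its genotypes in edgeR 4.0.16 (R 4.3.3): filterByExpr, TMM, robust quasi-likelihood fits, Benjamini-Hochberg adjustment over the genes tested (17009 in tail bud, 16750 in heart, 17512 in the remainder), threshold 0.05. The 9 wild-type libraries were fitted together (16922 genes), as were the 18 Full-KO and wild-type libraries (17548) and all 71 (18875). Each 95% interval is the estimate ± 1.96 SE, with the SE taken from the F statistic of the test. With so few libraries such an interval can be too narrow. CPM used TMM factors over 71 libraries. The biological coefficient of variation was 8.74% (tail bud), 8.87% (heart) and 6.47% (remainder). All 70 replicate pairs differed by more than sampling of reads allows (chi-square over its degrees of freedom at least 2.52). The series calls replicates biological, but the labels name no separate embryos or litters, so p-values measure the spread between these libraries. Scripts were tested on simulated data.

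All 10 genes were named in every comparison, and from each other list up to 3 genes per tissue with the smallest p in Full-KO. Genes and lists were chosen with earlier results of these data known. Alternatives were DESeq2 1.42.0, other filters, fewer groups, a replicate block and leaving out each library.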

Additional observations from a re-analysis of the deposited data

How the results depend on the processing

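Of 48 differences and terms of the 10 genes that passed, 29 passed under every alternative. The 48 were 28 wild-type tissue differences, 11 mutant differences and 9 seed-family terms. Most of the 29 were tissue differences, where only Egfl7, Esam, Cldn5 and Tie1 between tail bud and the remainder ended. The rest were Pecam1 in Delta_17_18_92 heart and remainder, and the miR-92 terms of Tek in tail bud and remainder and of Tie1 in the remainder. Of 999 alternative values, 903 kept the call, 96 ended it and none changed direction. The counts moved most in tail bud. There, 3 differences from wild type passed, but 6 with DESeq2, 1 with no filter on low counts, 0 with only the 2 groups compared, and 1 to 7 without 1 library (7 without wild-type replicate 2, 1 without replicate 3). The 2 in heart became 1 to 2 without 1 library and 3 with no filter. The 6 in the remainder became 3 (without Delta_17_18_92 replicate 2) to 6 without 1 library, 8 with no filter and 7 with only the 2 groups compared. Of seed-family terms, the 1 in tail bud became 3 with DESeq2, 2 with the replicate block and 1 to 3 without 1 library, and the 2 in heart became 1 with no filter and 0 to 3 without 1 library (0 without Delta_17 replicate 3 or Delta_18 replicate 2). Terms in the remainder moved too. Out of 23 fits without 1 library, the miR-17 term of Pecam1 ended in 5 and its miR-92 term in 1. The miR-19 term of Emcn and the miR-92 term of Cdh5 ended in 2 each. The miR-92 term of Esam passed there with DESeq2 and with the stricter filter. Full-KO against Delta_17_18_92 in heart gave 1 with DESeq2 and 1 with no filter, and departure from additivity gave 2 in heart and 1 in the remainder with no filter, all 0 otherwise. The cause was not tested.

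The labels do not say that equal replicate numbers mark a shared embryo, litter or day. Same-numbered libraries of wild type and a mutant all correlated above 0.1 in 2 of 21 pairs of groups, both Delta_92 (0.104 to 0.195 in tail bud, 0.118 to 0.28 in the remainder). Same-numbered wild-type tissues correlated at 0.229 to 0.383 for heart with remainder, 0.141 to 0.491 for tail bud with remainder and 0.095 to 0.27 for heart with tail bud, a hint from the data and not the design. With the replicate block, 28 wild-type tissue differences and 0 Full-KO effects by tissue passed, as without it, and the other 6 mutants' effects by tissue were not run with it. Of the 10 genes' calls, the block ended Cdh5 in Delta_17_18_92 remainder (adjusted p = 0.0584, edgeR), and it added Cldn5 in Delta_17_18 tail bud (0.0465) and the miR-17 term of Tek in tail bud (0.0398). In the other endothelial lists it ended, among the genes named, Flt4 in Full-KO heart (0.0514) and Ppp3r1 in Full-KO remainder (0.05). With 3 libraries per group several differences lie close to the threshold on either side, and the low counts of Cldn5 in heart leave wide intervals.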
